A study of Homo sapiens with 20 samples.

Results

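Silencing of POLR1D in SW480 cells was examined gene by gene, in all SW480 libraries of the study, which were 12 of its 20 RNA-seq libraries. SW480 is an established colorectal cancer cell line. Of the 12 libraries, 6 came from cells given a scrambled siRNA (SCR), 3 from cells transfected with siPOLR1D2 and 3 from cells transfected with siPOLR1D3. The other 8 libraries were 4 SCR and 4 silenced libraries of HT29, a further colorectal cancer line. An siRNA lowers a transcript for a time and leaves the gene in place, and a cell line holds no other tissue cells. The labels do not say which libraries came from separate cultures, so the p-values measure the spread between these libraries, which may be technical.

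The POLR1D protein is a small subunit that 2 nuclear RNA polymerases have in common. Polymerase I makes the ribosomal RNA precursor in the nucleolus, and polymerase III makes transfer RNAs, 5S ribosomal RNA and other short RNAs. Cells that lack amino acids, or that misfold proteins, phosphorylate the initiation factor eIF2 and make more of the transcription factor ATF4, which activates genes for amino acid synthesis, amino acid uptake and transfer RNA charging. The account below sets aside 45 genes of a published list, ATF4 itself, DDIT3 and XBP1 among them, and follows the other genes by function. Counts over all called genes, given for promoters, GC, the siRNAs and HT29, still include genes of that list. A gene was called when its adjusted p was under 0.05 in limma's moderated test on log2(value + 1), with the Benjamini-Hochberg adjustment over all genes tested, and folds are on that scale.

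The sum of normalized values of a library was 19870433 to 22958216, and 19167 to 22411 gene names were above 0. The libraries fell on 2 sides of the first principal component, which held 42% of the variance and matches no label. SCR replicates 1 to 3 and siPOLR1D2 replicates 1 and 2 lay on the first side, and the other 7 libraries on the second. SCR replicate 1 was intermediate, at -14.11, against -71.49 and -71.44 for SCR replicates 2 and 3 and 21.84 for SCR replicate 6. The sides are the sign of this component only. Of 14 markers of colorectal epithelium, 11 passed the filter on low values, and CDX1, LGALS4 and CEACAM5 did not. The 14 markers summed to 141419 to 272986 in SCR and to 186806 to 234063 in silenced libraries. The 10 fibroblast markers summed to 241.3 to 1276 and 263.9 to 1148, the 10 leukocyte markers to 84.4 to 180.1 and 77.8 to 144.7, and the 8 endothelial markers to 72.3 to 250.3 and 40.2 to 111.3. MS4A1 and FCGR3A were at 0 in all 12 libraries.

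The POLR1D transcript was lower in every silenced library. POLR1D (chromosome 13, 27620742 to 27744237, GRCh38) had normalized values of 1829 at the lowest, 2030 at the median and 2599 at the highest in SCR libraries, and of 843, 976 and 1336 in silenced libraries. The groups did not overlap, and the mean went from 2116 ± 281 to 1036 ± 183 (SD, n = 6 each; log2 fold change -1.04, SE 0.13, adjusted p = 0.000991). The exact permutation test, 2-sided, gave p = 0.00216, the smallest possible with 6 libraries against 6. The log2 fold change was -0.99 with siPOLR1D2 and -1.08 with siPOLR1D3. Of 15 tested neighbours of POLR1D in 13q12, limma called 0, and their median log2 fold change was -0.03.

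Of 15019 genes tested, limma called 1011 (6.73%). Silencing raised 367 genes (2.44%) and lowered 644 (4.29%), and 3478 genes had an unadjusted p under 0.05. All 6 silenced libraries lay above every SCR library for 253 genes (1.68%) and below every SCR library for 433 (2.88%). Beyond the published list, 364 genes rose by a median of 1.64-fold and 615 fell by a median of 1.57-fold, and 96 and 128 of them changed at least 2-fold. The balance of rises and falls depended on the scaling, since upper quartile scaling, which moved the median log2 fold change of all genes from 0.01 to 0.08, gave 564 higher and 478 lower genes.

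The number of calls also rested on single libraries. The total was 547 without SCR replicate 3, 573 without SCR replicate 4 and 550 without SCR replicate 6. It was 579 without siPOLR1D2 replicate 3, and 555, 636 and 533 without siPOLR1D3 replicates 1, 2 and 3. Within the first side (3 SCR and 2 silenced libraries) limma called 0 genes, with 1498 at an unadjusted p under 0.05. Within the second side (3 SCR and 4 silenced) it called 840 higher and 1057 lower. The sign of the log2 fold change was the same on both sides for all 1011 genes, which the pooled call favours.

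**Figure D1:**
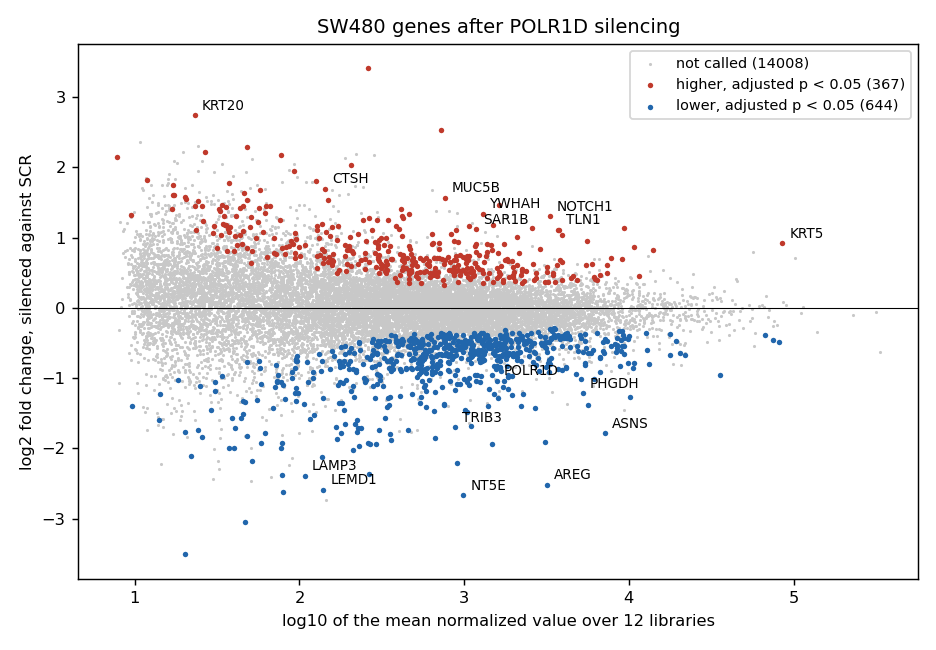
Each point is a gene tested in SW480, with its mean normalized value on a log x axis and the log2 fold change of silenced against SCR libraries on the y axis. The 367 genes called higher are red, the 644 called lower blue and the others grey. POLR1D lies at -1.04, and ASNS at -1.79 is among the well expressed genes that fell.

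Many genes that supply and charge amino acids fell. Of 21 genes for cytosolic aminoacyl-tRNA synthetases, the enzymes that join amino acids to transfer RNAs, and for scaffold proteins of their complex, 11 fell and 0 rose, all 11 of them synthetase genes, with a median log2 fold change of -0.44 against 0.01 for all genes. Of 24 genes for enzymes of serine, glycine, proline and asparagine metabolism, 9 fell and 0 rose (median -0.41). Of 17 genes of the ATF4 and C/EBP circuit, 8 fell and 0 rose (median -0.49), NARS counting in this list and among the synthetases. When single libraries were left out, 7 to 11 genes of the synthetase list, 4 to 9 enzyme genes and 4 to 9 circuit genes were called lower. The synthetase count was 7 without siPOLR1D3 replicate 3. The enzyme count was 4 or 5 without SCR replicate 2, 3, 4 or 6, siPOLR1D2 replicate 3 or any siPOLR1D3 library, and the circuit count was 4 or 5 without SCR replicate 6, siPOLR1D2 replicate 3 or siPOLR1D3 replicate 1 or 3.

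ASNS, which makes asparagine (chromosome 7, 97852118 to 97872542), had normalized values of 6695 at the lowest, 11147 at the median and 18824 at the highest in SCR libraries, and of 2066, 3307 and 3761 in silenced libraries. The highest silenced library was below the lowest SCR library (log2 fold change -1.79, SE 0.23, adjusted p = 0.00166). PHGDH, which diverts glycolytic carbon into serine, fell from 7335 ± 2234 to 3155 ± 954 (SD, n = 6 each). PCK2, the mitochondrial phosphoenolpyruvate carboxykinase, fell from 1209 ± 302 to 539 ± 163, with 5 of 6 silenced libraries below every SCR library. GOT1, the cytosolic aspartate aminotransferase, fell 2-fold without overlap. MTHFD1L, a mitochondrial enzyme of the folate cycle, fell 1.33-fold, with 3 of 6 silenced libraries below the SCR range.

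CARS, the cysteine synthetase (chromosome 11, 3000922 to 3057613), ranged from 1939 to 2925 with a median of 2445 in SCR libraries, and from 1085 to 1653 with a median of 1202 in silenced libraries. The groups were apart (log2 fold change -0.96, SE 0.12, adjusted p = 0.00141). The serine enzyme SARS fell 1.91-fold, the tyrosine enzyme YARS 1.63-fold and the isoleucine enzyme IARS 1.6-fold, also without overlap. The methionine enzyme MARS fell 1.58-fold, and 1 silenced library lay inside the SCR range.

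TRIB3, a pseudokinase gene that ATF4 activates (chromosome 20, 362835 to 397559), had a median of 1464 in SCR and of 317 in silenced libraries. SCR replicate 1, at 408, lay below 2 silenced libraries, and the others were higher than all silenced ones (log2 fold change -1.70, SE 0.37, adjusted p = 0.0177). HERPUD1, which acts in the degradation of misfolded endoplasmic reticulum proteins, fell 2.44-fold, STC2, a secreted glycoprotein, 2.3-fold, and TNFRSF10B, a receptor of the death ligand TRAIL, 2.02-fold. Of 22 amino acid transporter genes, 2 rose and 1 fell (median -0.09). The cationic amino acid carriers moved in opposite directions, with SLC7A1 1.54-fold lower and SLC7A2 1.99-fold higher, and SLC43A2, a carrier of large neutral amino acids, was 2.91-fold higher.

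Promoter stretches of lowered genes of these lists are shown because their letters can be set against TGATGNAA, the form of site that ATF4 with a C/EBP partner binds. RefSeq promoters (GRCh38.p14, first listed start of a gene, 250 bases before it to 50 after) were matched for 11107 of 15019 tested genes, 287 of 367 higher genes (78.2%) and 522 of 644 lower genes (81.1%). Under 80% of the higher and of all tested genes had a promoter, which voids a comparison of these sets, and the shares describe the matched promoters only. On either strand, TGATGNAA stood in 17 of 522 lower promoters (3.26%), in 0 of 287 higher promoters and in 1.73% of all matched promoters. These sets include genes of the published list, and AARS, ATF3 and GPX8 of that list were among the 17. Of the lowered genes of these 3 lists, ASNS, IARS, GOT1, MTHFD1L and HERPUD1 held the whole match before the start. In CARS it lay across the start, and in NARS and the transporter gene SLC7A1 after it. The 5 stretches with the match before the start are shown, in 100 bases read 5′ to 3′ along the gene, with the match in capitals.
ASNS: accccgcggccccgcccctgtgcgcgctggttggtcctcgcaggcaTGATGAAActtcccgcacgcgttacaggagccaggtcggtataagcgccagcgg
IARS: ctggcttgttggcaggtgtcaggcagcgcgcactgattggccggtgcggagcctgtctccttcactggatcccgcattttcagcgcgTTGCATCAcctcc
GOT1: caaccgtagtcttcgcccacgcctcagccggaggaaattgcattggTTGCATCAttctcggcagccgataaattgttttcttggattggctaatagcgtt
MTHFD1L: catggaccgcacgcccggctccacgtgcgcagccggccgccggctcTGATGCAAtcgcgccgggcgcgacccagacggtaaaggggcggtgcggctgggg
HERPUD1: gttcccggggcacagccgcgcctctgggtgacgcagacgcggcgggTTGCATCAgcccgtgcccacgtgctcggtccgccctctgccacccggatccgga
The stretches are chr7:97872423-97872522 (minus strand), chr9:92293698-92293797 (minus strand), chr10:99430769-99430868 (minus strand), chr6:150866311-150866410 (plus strand) and chr16:56931920-56932019 (plus strand), in that order. The capitals in IARS, GOT1 and HERPUD1 are the letters of the opposite strand. The match began 68 bases before the start in ASNS, 13 in IARS, 198 in GOT1, 129 in MTHFD1L and 176 in HERPUD1. TGACGTCA was held by 3.26% of lower, 3.14% of higher and 3.29% of all promoters, TGACTCA by 4.02%, 4.53% and 3.07%, and the interferon-stimulated response element core by 1.92%, 3.14% and 2.84%. A match of letters is not a bound site.

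Genes of protein quality control in the endoplasmic reticulum and of autophagy fell in part. Of 38 genes of the unfolded protein response, 6 fell and 0 rose (median log2 fold change -0.15), and 3 were called without SCR replicate 3 or 4 or any siPOLR1D3 library. With the library side as a covariate 11 were lower, and within the second side 5 were lower and 2 higher. The chaperone genes HSPA5, HSP90B1 and HYOU1 were among those not called over all 12 libraries. ERN1, the sensor IRE1 (chromosome 17, 64039142 to 64130819), ranged from 184 to 483 in SCR and from 68.7 to 157 in silenced libraries without overlap (log2 fold change -1.71, SE 0.26, adjusted p = 0.00326). EDEM1 and EDEM2, which pass misfolded glycoproteins to degradation, fell 2.12-fold and 1.57-fold, and CREB3L2, a transcription factor held in the endoplasmic reticulum membrane, 2.42-fold. Of 31 autophagy genes, 6 fell and 0 rose (median -0.24), and 29 had a negative log2 fold change. With the side as a covariate 11 were called lower, and within the second side 9. The cargo receptor CALCOCO2 fell from 2340 ± 470.2 to 1299 ± 125 (SD, n = 6 each). The further receptors NBR1 and TAX1BP1 fell 1.6-fold and 1.48-fold, and ATG12, part of the conjugation machinery, 1.75-fold.

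**Figure D2:**
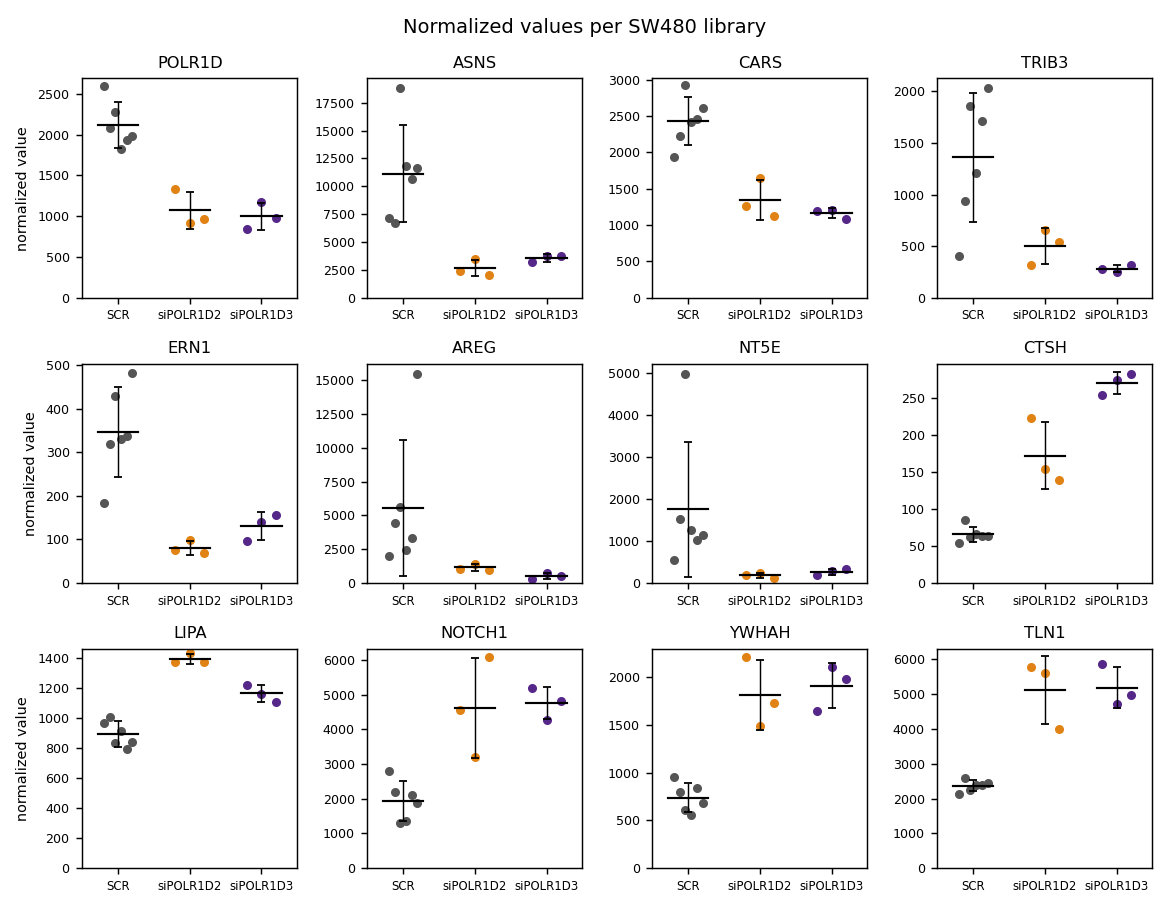
Normalized values of 12 genes in the SW480 libraries, with SCR, siPOLR1D2 and siPOLR1D3 on the x axis of each panel and a linear y axis from 0. Points are libraries, lines are means and bars are SD (n = 6, 3 and 3). POLR1D, ASNS, CARS, TRIB3, ERN1, AREG and NT5E were lower and CTSH, LIPA, NOTCH1, YWHAH and TLN1 higher in the silenced libraries, and single SCR libraries stood high for AREG and NT5E.

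Of 35 lysosomal genes tested, 8 rose (22.9%, against 2.44% of all genes) and 0 fell (median log2 fold change 0.24). Of the 35, 21 had a positive and 14 a negative log2 fold change. The list median was 0.08 with siPOLR1D2 and 0.38 with siPOLR1D3, and 0.10 within the first side and 0.29 within the second. With the library side as a covariate 9 were higher and 1 lower, and within the second side 10 were higher and 1 lower. LAMP3, a lysosome-associated membrane protein that is not on this list, fell 5.23-fold. The count of 8 became 3 without SCR replicate 4 or 6 or siPOLR1D3 replicate 1 or 3. It became 5 without SCR replicate 3, siPOLR1D2 replicate 3 or siPOLR1D3 replicate 2. CTSH, a lysosomal cysteine protease (chromosome 15, 78921058 to 78949574), ranged from 54.6 to 84.3 in SCR and from 139 to 282 in silenced libraries, with no overlap (log2 fold change 1.70, SE 0.21, adjusted p = 0.000991). LIPA, which hydrolyses cholesteryl esters in the lysosome, ranged from 793 to 1010 and from 1108 to 1429, a rise of 1.43-fold. CTSA, a carboxypeptidase that protects lysosomal glycosidases, rose 1.36-fold.

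The letters CACGTG, the core recognised by helix-loop-helix factors such as TFEB, MITF, MYC and USF, stood in 47 of 287 higher promoters (16.4%), in 47 of 522 lower promoters (9%) and in 9.89% of all matched promoters. As above, the incomplete matching voids a comparison of these sets. Median transcript GC was 54.5% for higher and 44.9% for lower genes, and its part in these shares was not tested. Of the 8 raised lysosomal genes, those with these letters before the start were CTSA, CTSD, which encodes cathepsin D, and ATP6V0D1, which encodes a subunit of the proton pump. Their stretches are given with the letters in capitals.
CTSA: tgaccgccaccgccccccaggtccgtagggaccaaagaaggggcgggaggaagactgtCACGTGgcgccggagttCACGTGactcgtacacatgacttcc
CTSD: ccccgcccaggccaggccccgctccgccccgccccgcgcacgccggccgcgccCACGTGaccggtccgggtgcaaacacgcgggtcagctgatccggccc
ATP6V0D1: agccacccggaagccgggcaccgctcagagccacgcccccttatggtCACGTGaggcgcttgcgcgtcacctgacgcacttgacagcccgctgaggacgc
They are chr20:45891235-45891334 (plus strand), chr11:1763928-1764027 (minus strand) and chr16:67481164-67481263 (minus strand), in that order, and the stretch of CTSA holds the letters at 2 places. CTSD rose 1.72-fold and ATP6V0D1 1.36-fold.

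Some genes of the polymerases were called, with 23.1% of polymerase I genes and 9.09% of polymerase III genes higher, against 2.44% of all genes. The shares lower were 0% and 4.55%, against 4.29% of all genes. Of 13 RNA polymerase I genes other than POLR1D, 3 rose and 0 fell (median 0.01), and 1 was called without SCR replicate 3, 4 or 6 or any siPOLR1D3 library. The list median was 0.17 with siPOLR1D2 and -0.15 with siPOLR1D3, of opposite sign. POLR1A, the largest subunit, rose 1.38-fold without overlap. UBTF, which keeps ribosomal DNA open, rose 1.48-fold, and CD3EAP, another subunit, 1.54-fold, with 4 and 2 silenced libraries above every SCR library. Of 22 RNA polymerase III genes (median 0.06), POLR3E rose 1.6-fold and BRF1, of the initiation factor TFIIIB, 1.34-fold, and POLR3D fell 1.4-fold. This median too differed in sign, at 0.20 with siPOLR1D2 and -0.12 with siPOLR1D3. Ribosomal RNA and transfer RNA were not measured.

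Of 58 ribosome biogenesis genes, 2 rose (3.45%, against 2.44% of all genes) and 1 fell (1.72%, against 4.29%), with a median of 0.07. Besides POLR1A these were NOP2, a ribosomal RNA methyltransferase, 1.44-fold higher, and DDX21, a nucleolar helicase, 1.31-fold lower. Of 79 cytosolic ribosomal protein genes, RPL10A alone was called, 1.28-fold lower (median -0.11). Of 58 genes with EIF symbols, 6 fell and 1 rose (median -0.11), and 3 were called lower without siPOLR1D3 replicate 3. EIF2S2, the beta subunit of eIF2, fell 1.38-fold, EIF2D 1.46-fold, and EIF1 and EIF1B, which take part in start codon selection, 1.61-fold and 1.58-fold. EIF4E2, a cap-binding protein, rose 1.44-fold.

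**Figure D3:**
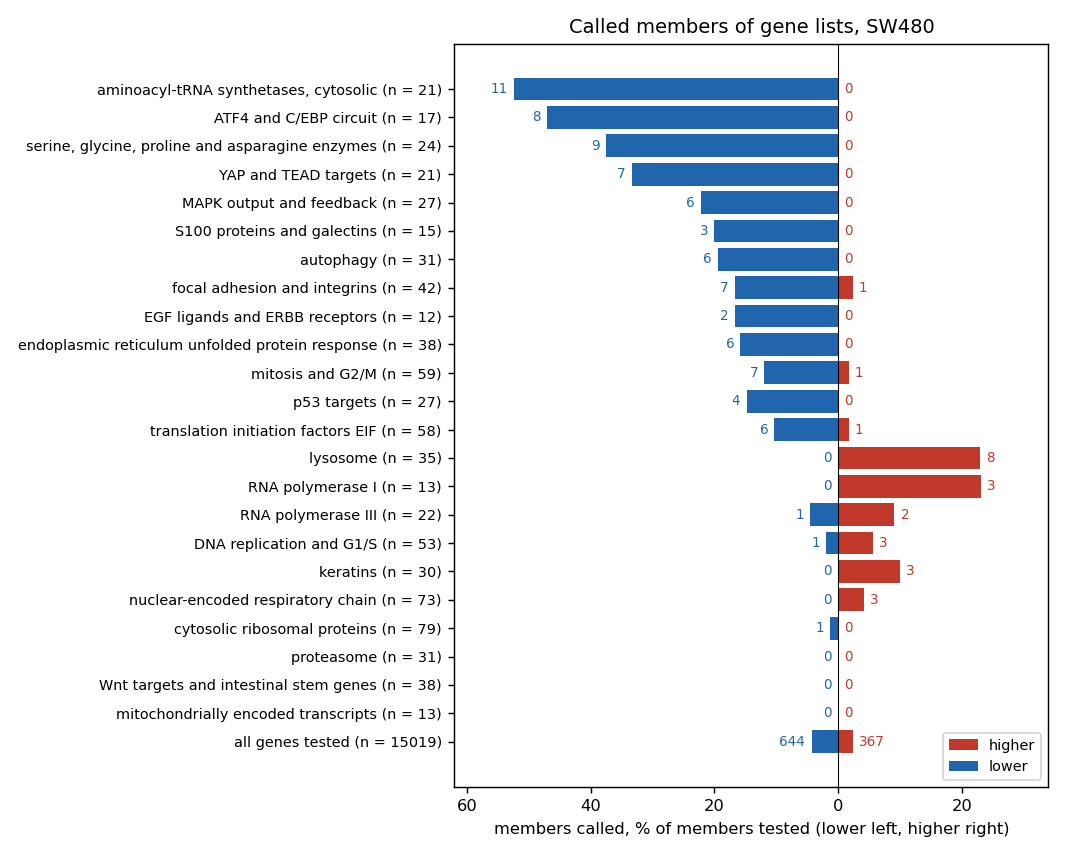
Bars give the members called lower (blue, left) and higher (red, right) as a percentage of the tested members of each list, with the number called at the bar and the number tested in brackets. The synthetase list (11 of 21) and the ATF4 and C/EBP circuit (8 of 17) have the longest blue bars, and lysosome (8 of 35) and RNA polymerase I (3 of 13) the longest red ones among the lists drawn.

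Some genes of growth factor ligands fell. AREG, the EGF receptor ligand amphiregulin (chromosome 4, 74445134 to 74455009), had normalized values of 1965 at the lowest, 3891 at the median and 15474 at the highest in SCR libraries, and of 321, 862 and 1413 in silenced libraries. SCR replicate 6 was far above the other controls, and the groups did not overlap (log2 fold change -2.52, SE 0.46, adjusted p = 0.00863). HBEGF, another ligand of the receptor family, fell 3.85-fold, with 4 of 6 silenced libraries below every SCR library. They were the 2 genes called among 12 EGF ligands and ERBB receptors (median -0.14).

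Of 27 genes that report or restrain MAPK signalling, 6 fell and 0 rose (median -0.44), and 3 were called without SCR replicate 3 or 6 or siPOLR1D3 replicate 3. The list median was -0.10 with siPOLR1D2 and -0.54 with siPOLR1D3. The feedback genes DUSP6, SPRY2 and SPRY4 were among those not called. ETV5, a transcription factor below ERK, fell 1.63-fold, EPHA2, a receptor tyrosine kinase, 1.56-fold, DUSP16, a MAP kinase phosphatase, 1.58-fold, and MYEOV 1.86-fold. Of 21 genes of YAP and TEAD, the effectors of the Hippo pathway, 7 fell and 0 rose (median -0.51). That count was 2 to 4 without any single library other than SCR replicates 1 and 2, and 3 with upper quartile scaling. NT5E, the ectonucleotidase CD73 (chromosome 6, 85449584 to 85495791), ranged from 548 to 4977 in SCR and from 127 to 330.4 in silenced libraries. SCR replicate 3 was the highest control, and the groups did not overlap (log2 fold change -2.67, SE 0.41, adjusted p = 0.00357). YAP1 itself fell 1.41-fold, AMOTL2, which binds YAP, 1.93-fold, and DLC1, a GTPase activator, 1.84-fold.

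Of 42 genes of focal adhesions and integrins, 7 fell and 1 rose (median -0.42), and 4 were called lower without SCR replicate 6, siPOLR1D2 replicate 3 or siPOLR1D3 replicate 1 or 3. With the library side as a covariate 16 were lower, and within the second side 13 were lower and 2 higher. The gene that rose was TLN1, whose product talin ties integrins to actin (chromosome 9, 35696948 to 35732395). TLN1 ranged from 2127 to 2581 in SCR and from 3994 to 5858 in silenced libraries, without overlap (log2 fold change 1.12, SE 0.10, adjusted p = 0.000197). TES (testin) fell from 3215 ± 743 to 1206 ± 214 (SD, n = 6 each), VCL (vinculin) 1.45-fold and PXN (paxillin) 1.56-fold. Of 11 annexins, ANXA3 and ANXA5 fell 1.8-fold and 1.73-fold (median -0.32). Of 15 S100 proteins and galectins, S100A10, S100A16 and LGALS8 fell 1.58-fold, 1.66-fold and 1.53-fold (median -0.38). TGFBR2, a receptor of TGF-beta, fell 2.23-fold. It was the 1 gene that fell among 31 of TGF-beta signalling, of which 2 rose (median 0.12). The shares were 3.23% lower and 6.45% higher, against 4.29% and 2.44% of all genes.

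Of 53 genes of DNA replication and G1/S, 3 rose (5.66%, against 2.44% of all genes) and 1 fell (1.89%, against 4.29%). The log2 fold change was positive for 43 of the 53 (median 0.26) and for 7740 of all 15019 genes. POLD3, a subunit of DNA polymerase delta, rose 1.52-fold, MCM5 and GINS2, parts of the replicative helicase, 1.44-fold and 1.85-fold, and E2F7, a repressor of E2F targets, fell 1.48-fold. With upper quartile scaling 6 of them were called higher, with quantile normalization 6, with the library side as a covariate 11 and within the second side 19. The number called higher was 1 without any single library other than SCR replicate 1 (7), 2 (6) or 5. Of 59 mitotic genes, 7 fell (11.9%, against 4.29% of all genes) and 1 rose (1.69%, against 2.44%), with a median of -0.14. CKAP2L, a spindle protein, fell 1.83-fold, TPX2, which activates Aurora A, 1.52-fold, NUF2, of the kinetochore, 1.51-fold, and ECT2, needed for cytokinesis, 1.46-fold, while PRC1, a crosslinker of the spindle midzone, rose 1.47-fold. The mitotic count lower was 3 to 5 when single libraries were left out and 4 with upper quartile scaling, and within the second side the median was 0.05, of the opposite sign.

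Of 18 cyclin-dependent kinase inhibitors and G1 regulators, 3 fell (16.7%, against 4.29% of all genes) and 1 rose (5.56%, against 2.44%), with a median of -0.22. CDKN2B, the inhibitor p15, fell 2.44-fold, CDKN1B, the inhibitor p27, 1.5-fold, CDK6 fell 1.65-fold, and RBL1, the pocket protein p107, rose 1.33-fold. Of 27 p53 targets, 4 fell (14.8%, against 4.29% of all genes) and 0 rose (median -0.01). The count was 2 without SCR replicate 2, 3 or 6 or siPOLR1D3 replicate 1 or 3. The 4 were TNFRSF10B, given above, GADD45A, a DNA damage inducible gene, 2.14-fold lower, PLK2 1.66-fold lower and MDM2, the ligase that limits p53, 1.37-fold lower.

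By the rule for the largest changes (called, no overlap between the groups, and a mean of at least 100 in the higher group), 156 genes rose and 329 fell, and genes among the 15 largest in each direction are described. YWHAH, a 14-3-3 adaptor protein (chromosome 22, 31944461 to 31957603), ranged from 559 to 954 in SCR and from 1490 to 2215 in silenced libraries (log2 fold change 1.34, SE 0.15, adjusted p = 0.000521). NOTCH1, a receptor of cell fate decisions (chromosome 9, 136494433 to 136545786), ranged from 1293 to 2799 and from 3207 to 6084, a rise of 2.47-fold. LPCAT1, which remodels phosphatidylcholine, rose 2.52-fold, MDK, the growth factor midkine, 2.44-fold, TOP1MT, the mitochondrial topoisomerase I, 2.47-fold, RBM38, an RNA-binding protein, 2.39-fold, and HIPK3, a kinase, 2.26-fold. EMP2, CHPF, SEMA6A and ADAMTSL2 rose between 2.25-fold and 2.43-fold. CTSH and SLC43A2, given above, were also among them, as was SUDS3P1, a pseudogene whose reads may belong to SUDS3, 3.88-fold higher.

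The 15 largest decreases included NT5E, AREG, ASNS and ERN1. LEMD1, a cancer-testis antigen gene, ranged from 140.2 to 412 in SCR and from 14.6 to 54.7 in silenced libraries, a decrease of 6.02-fold. The transcription factor gene CREB5 fell 6.13-fold and LAMP3 5.23-fold. GPAT3, which takes the opening step of glycerolipid synthesis, fell from 459.9 ± 71.4 to 124 ± 43.6 (SD, n = 6 each). GPRC5A, a receptor induced by retinoic acid, fell 3.68-fold and DHRS3, which reduces retinal, 3.64-fold. COL13A1, a membrane collagen, fell 3.43-fold, RPS6KA2, a kinase below ERK, 3.28-fold, and PRKG2, a kinase activated by cGMP, 3.25-fold. SLC26A4, an anion exchanger, fell 3.98-fold, and SCR replicate 3 held 468.1 where the other SCR libraries held 46.4 to 77.5. RPL13AP20, a pseudogene whose reads may belong to RPL13A, was 3.8-fold lower. TMEM156, below the expression limit of this rule, was at 14.6 to 67.7 in SCR and at 0 to 4.85 in silenced libraries. It met the minimum of 10 in 6 libraries through the SCR group, which sets its direction.

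Of 30 keratin genes, KRT5, KRT19 and KRT20 rose (median 0.32), a share of 10% against 2.44% of all genes. KRT5 ranged from 39082 to 75750 in SCR and from 91156 to 127547 in silenced libraries, 1.9-fold higher. KRT20, a marker of mature colonocytes, was low throughout, with 1.73 to 11.2 in SCR and 20.7 to 94.6 in silenced libraries. It met the minimum of 10 in 6 libraries through the silenced group, which sets its direction. KRT20 was the 1 gene called among 26 of colonocyte and goblet differentiation, a share of 3.85% against 2.44% of all genes. The median of that list was 0.21, with 19 genes above 0 and 7 below. Of 11 mucins (median 0.19), MUC5B rose 2.97-fold and MUC20 2.73-fold, a share of 18.2% against 2.44% of all genes. Of 16 genes of the COPII coat, which buds vesicles from the endoplasmic reticulum, 2 rose and 3 fell (median 0.0008). The shares were 12.5% and 18.8%, against 2.44% and 4.29% of all genes. SAR1B and SEC24B rose 2.18-fold and 1.35-fold, and SEC24D and SEC23B fell 2.13-fold and 1.35-fold. Of 33 genes of RNA silencing and P-bodies, 3 rose (9.09%, against 2.44% of all genes) and 1 fell (3.03%, against 4.29%), with a median of -0.03. TNRC6A and LSM14A were 2.19-fold and 2.05-fold higher.

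Among 20 genes of fatty acid synthesis (median 0.05), FASN and ACACA rose 1.77-fold and 1.37-fold, and of 31 cholesterol genes (median 0.19) LSS rose 1.6-fold. The shares higher were 10% and 3.23%, the second near the 2.44% of all genes. Of 29 targets of NRF2, the regulator of antioxidant genes, NQO1, TXNRD1 and its own gene NFE2L2 fell 1.86-fold, 1.57-fold and 1.57-fold (median -0.18). That is a share of 10.3% against 4.29% of all genes. Of 44 interferon-stimulated genes, IRF1 and IFI35 fell 1.9-fold and 1.95-fold and SAMD9 rose 1.91-fold (median -0.10). These shares, 4.55% lower and 2.27% higher, were near the 4.29% and 2.44% of all tested genes. Of 73 nuclear genes of the respiratory chain, NDUFB10, ATP5ME and NDUFA11 rose 1.69-fold, 1.5-fold and 1.29-fold (median 0.13), a share of 4.11% against 2.44% of all genes. Of 447 tested zinc finger genes named ZNF, 11 rose and 2 fell (median 0.14). The share higher was 2.46%, at the level of all genes, and ZNF239 and ZNF296 rose 2.48-fold and 2.04-fold.

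limma called 0 of 38 Wnt targets and intestinal stem genes (median 0.26), 0 of 31 proteasome genes (median -0.09) and 0 of 13 mitochondrially encoded transcripts (median 0.07). The mitochondrial median was 0.33 with siPOLR1D2 and -0.16 with siPOLR1D3, and 0.59 within the first side and -0.21 within the second. The Wnt median was 0.02 with siPOLR1D2 and 0.57 with siPOLR1D3. AXIN2, a feedback target of Wnt signalling, was at 9871 ± 3214 in SCR and 16242 ± 4810 in silenced cells (SD, n = 6 each; adjusted p = 0.101 in limma). CTNNB1, which encodes beta-catenin, was at 38840 ± 10716 and 51073 ± 12354 (adjusted p = 0.275).

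GC content of the transcripts moved with the comparison. The longest GENCODE 29 transcript had a median GC share of 54.5% for higher genes, 44.9% for lower genes and 48.4% for all tested genes. With the genes in 5 equal bins by GC share, in the lowest bin 1.55% were called higher and 5.71% lower, and in the highest 4.36% and 1.79%. The median log2 fold change went from -0.06 to 0.15 between these bins, from -0.01 to 0.10 with siPOLR1D2 and from -0.11 to 0.20 with siPOLR1D3. On chromosome 19, where the tested genes had a median GC share of 58.3%, 38 of 1001 genes were higher and 11 lower. With a GC curve subtracted from each library, an adjustment chosen after seeing the data, 340 genes were higher and 551 lower. Then 10 of 21 genes of the synthetase list, 8 of 17 circuit genes and 9 of 24 enzyme genes were called lower, and 6 of 35 lysosomal genes higher. The part of GC in the single calls was not tested.

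**Figure D4:**
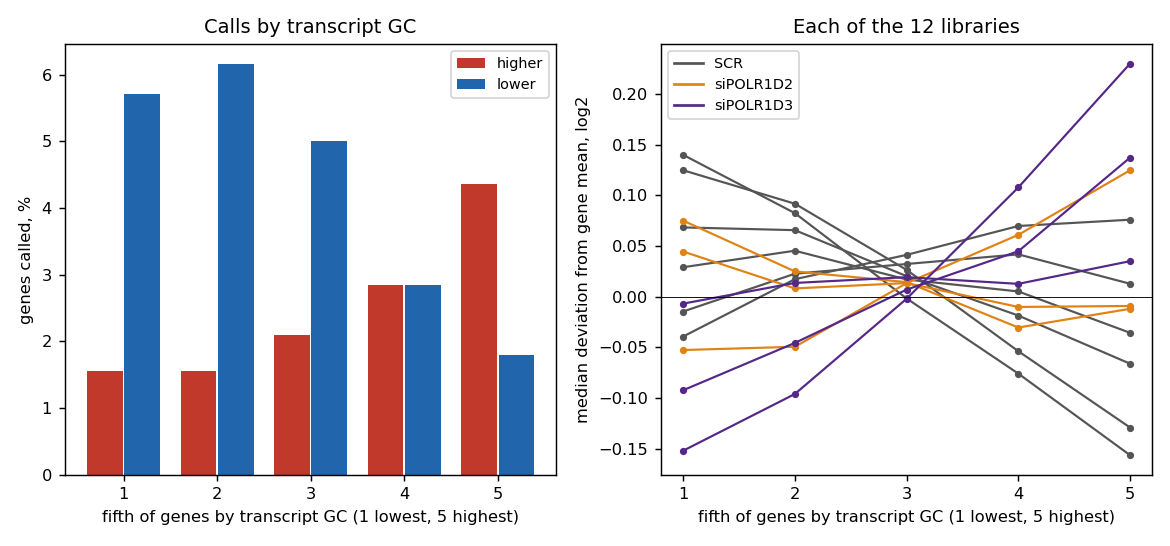
The left panel gives the percentage of genes called higher (red) and lower (blue) in 5 bins of genes by transcript GC share. The right panel gives the median log2 deviation from the gene mean for each library in the same bins. SCR replicates 2 and 3 went down with GC (0.12 to -0.13 and 0.14 to -0.16) and siPOLR1D3 replicates 1 and 3 up (-0.15 to 0.23 and -0.09 to 0.14), with the other libraries between them.

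The siRNAs were also taken apart. Against the same 6 SCR libraries, 1225 genes (8.16%) were called with siPOLR1D2 and 992 (6.6%) with siPOLR1D3. Compared directly, siPOLR1D3 and siPOLR1D2 differed for 498 genes (3.32%), among them 10 of the 367 higher and 18 of the 644 lower genes. GPAT3 was at 146 to 184 with siPOLR1D2 and at 76.5 to 109 with siPOLR1D3 (log2 difference -0.88, adjusted p = 0.0391 in limma). SAMD9, a gene of the interferon response, was at 1050 to 1120 and 583 to 646 (log2 difference -0.83, adjusted p = 0.0493). All siPOLR1D3 libraries and 1 siPOLR1D2 library lay on the second side, and with the side as a covariate 213 genes differed between the siRNAs.

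HT29 gave values from other cells with their own controls. Of the 367 higher genes, 320 had a value in HT29, and 255 of these (79.7%) had a positive log2 fold change there (median 0.21, against 0.68 in SW480). Of the 644 lower genes, 602 had a value and 505 (83.9%) had a negative one (median -0.29, against -0.65). Of all 12724 genes with both values, 49.8% were positive in HT29. With 4 libraries against 4, limma called 0 of these genes in HT29. ASNS was at -1.24 there, TRIB3 at -1.84, CARS at -0.78 and LAMP3 at -4.03. The HT29 medians were -0.69 for the ATF4 and C/EBP circuit, -0.22 for the synthetase list and -0.28 for the serine, glycine, proline and asparagine enzymes. They were -0.17 for the lysosome, 0.04 for YAP and TEAD and -0.05 for MAPK genes.

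**Figure D5:**
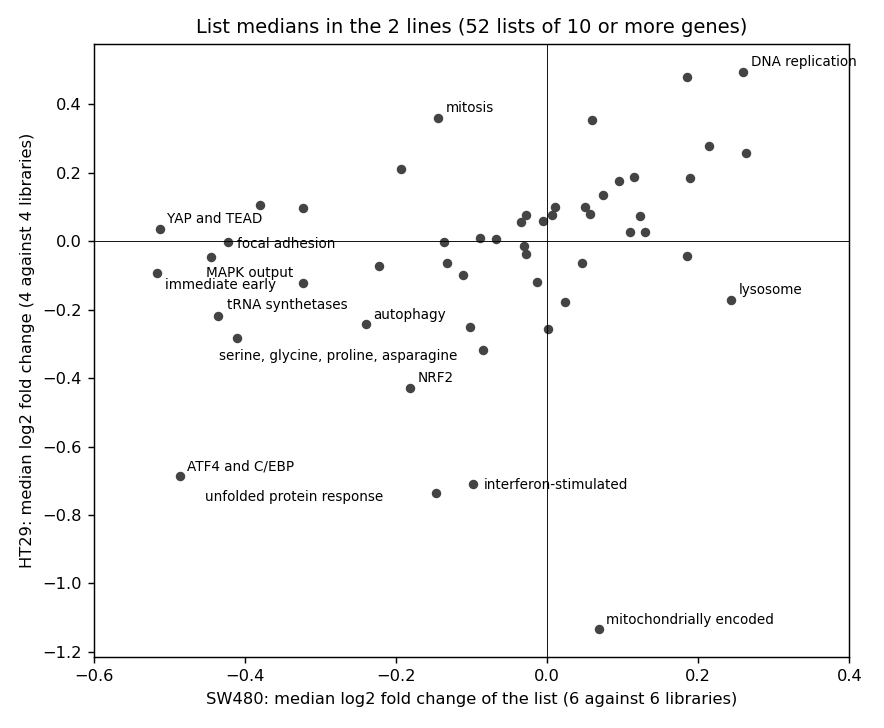
Each point is a list with at least 10 tested genes, placed by its median log2 fold change after silencing in SW480 (x axis) and HT29 (y axis). Of 52 lists, 20 were below 0 in both lines, 16 above 0 in both and 16 of opposite sign. The ATF4 and C/EBP circuit lies at -0.49 and -0.69, and the lysosome at 0.24 and -0.17.

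The difference in response between the lines, tested as an interaction in limma, was called for 6 of 16203 genes (0.037%), and 1342 genes had an unadjusted p under 0.05. CTSH, which rose in SW480, was at a log2 fold change of 0.14 in HT29 (difference 1.55, adjusted p = 0.028). SAR1B and LSM14A, also raised in SW480, were at 0.07 and 0.14 in HT29 (differences 1.05 and 0.89). CAMK2N1, an inhibitor of CaM kinase II, was at -1.79 in SW480 and 0.71 in HT29 (difference -2.49, adjusted p = 0.0252). GCOM1, which overlaps MYZAP and POLR2M and is therefore uncertain, ranged from 399.9 to 539 in SCR and from 121 to 244 in silenced SW480 libraries and was at -0.14 in HT29 (difference -1.43). GAGE13, which has near-identical copies, was at 0 in all SW480 SCR libraries and at 3.08 to 18.3 in silenced ones, and at 7.13 to 19.8 and 0 to 18.5 in HT29. It met the minimum of this fit, 10 in 4 libraries, without the SCR libraries of SW480, which sets its direction there. Its values were low throughout.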

How the data were processed

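RNA from SW480 and HT29 cells was captured for coding exons and sequenced. Per the labels and the submitters' processing notes, the authors checked reads with FastQC 0.11.5, quantified them with kallisto 0.44.0, with hg38 as the named build, and normalized them with DESeq2 1.24.0, and the deposited values are normalized signal per gene and library. Whole reads could not be recovered (25.3 to 54.9% of low values were multiples of the commonest one), so the depth is unknown. The 40117 rows of a library were summed to 36346 gene names, of which 12 are calendar dates in place of symbols. Testing was limited to genes that reached 10 in 6 or more libraries, and used limma 3.58.1 (R 4.3.3; lmFit, eBayes with trend) on log2(value + 1), silenced against SCR, with Benjamini-Hochberg adjustment and a threshold of 0.05. A fit with 3 groups compared the siRNAs, and an interaction over all 20 libraries compared the lines, which had been normalized separately. The fits were tested on simulated data. Members and lists were chosen with earlier results of these data known. Named genes were POLR1D, the 15 largest changes per direction as defined in the report, and per list up to 4 called genes in each direction or, where none was called, up to 2 of the highest mean. MTHFD1L, IARS, NARS, CTSD and ATP6V0D1 (promoter letters) and CAMK2N1, GCOM1 and GAGE13 (difference between lines) were named after their values were seen. So were HSPA5, HSP90B1 and HYOU1, which were not called. Some genes that met the rule are not reported here. Coordinates are from GENCODE 29, and promoters from RefSeq. Alternatives changed the scaling, pseudocount, filter, variance model, threshold, library side, siRNA, replicate block and libraries left out.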

Additional observations from a re-analysis of the deposited data

Results flagged for a closer look

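In groups of 6 libraries, 21 of 270 gene and group combinations held a library that stood far from the other 5, a mark that chance gives to about 1 in 20 groups. Among SCR libraries, replicate 3 was far above the others for GOT1 (2592.3), YARS (10517.6), PXN (1297.2), SLC26A4 (468.1) and TGFBR2 (3128.8), and far below for SUDS3P1 (4.691). SCR replicate 2 was far below for ATG12 (486.7), ANXA3 (2322.8) and GPRC5A (230.3), and SCR replicate 1 for MTHFD1L (3040.3) and MDM2 (1754.3). Among silenced libraries, siPOLR1D2 replicate 3 was far below for BRF1 (504.9), VCL (5676.5) and COL13A1 (27.13) and far above for RPS6KA2 (163.8). Replicate 2 of siPOLR1D2 was far above for CARS (1652.6) and EIF1B (500.7) and far below for POLD3 (505.8) and E2F7 (448). Replicate 1 of siPOLR1D2 was far above for PLK2 (1137.7), and siPOLR1D3 replicate 2 far below for CHPF (283.9).

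The siRNAs differed in limma, as the log2 difference of siPOLR1D3 minus siPOLR1D2, for GPAT3 (-0.88, adjusted p = 0.0391) and SAMD9 (-0.83, adjusted p = 0.0493). The lines differed, as SW480 minus HT29 on the log2 scale, for CTSH (1.55), SAR1B (1.05), LSM14A (0.89), CAMK2N1 (-2.49) and GCOM1 (-1.43).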

How the results depend on the processing

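All 133 called genes that the text names kept their sign under every alternative that gave them a value (128 of them with a mean of at least 50, 132 with rows not summed), and 129 were still called with upper quartile scaling, 119 with a GC adjustment added after the data were seen, 119 within the second side, 97 with siPOLR1D3 alone, 63 with siPOLR1D2 alone, 55 at a threshold of 0.01, 92 to 130 when a library was left out and 0 with the replicate block or on the first side. The genes had been chosen by the call in these same libraries, which favours a kept sign. The counts moved far more, and the cause was not tested. The total of 1011 (367 higher, 644 lower) became 666 (244, 422) with no filter on low values, 3057 (1348, 1709) with array weights, 1993 (812, 1181) with library side as covariate, 0 (0, 0) on the first side, 1897 (840, 1057) on the second side, 582 (191, 391) with siPOLR1D2 alone, 182 (55, 127) at a threshold of 0.01 and 1821 (716, 1105) at 0.1, and upper quartile scaling gave 564 higher. The siPOLR1D2 count of 1225 became 4046 with array weights, 2241 with the side, and 321 and 2182 at the 2 thresholds, and the siPOLR1D3 count of 992 became 3782, and 200 and 1911 at the thresholds. The siRNA difference of 498 became 289 with no filter, 293 with no mean-variance trend, 4637 with array weights, 213 with the side, and 43 and 1211 at the thresholds. The interaction count of 6 became 17 with a pseudocount of 0.1, 3 with no trend, 143 with array weights, and 0 and 25 at the thresholds. POLR1D on the first side was at -1.06 (adjusted p = 0.267). Leaving out a library gave totals of 533 to 1278, 176 to 531 higher, 353 to 747 lower, 448 to 1825 for siPOLR1D2, 118 to 1358 for siPOLR1D3, 39 to 791 for the siRNA difference, 0 to 13 for the interaction and -1.11 to -0.98 for POLR1D. With a replicate block limma called 0 genes (0 higher, 0 lower; 3003 at an unadjusted p under 0.05), 20 with siPOLR1D2, 39 between siRNAs and 36 for the interaction, and POLR1D was at -1.17 (adjusted p = 0.0865). Of 9 same-numbered pairs, 2 had a correlation over 0.1 (range -0.595 to 0.391). The lowest was between SCR replicate 3 and siPOLR1D2 replicate 3, which lay on opposite sides. The highest was between SCR replicate 2 and siPOLR1D2 replicate 2, both on the first side. The correlations may follow the sides, so they cannot tell whether libraries were paired. In the block fit, an SCR library whose number no silenced library had stood alone in its block. Without depth, precision per gene is known only from the spread between libraries.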
